A study of Mus musculus with 8 samples.

Results

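Coagulation and complement proteins are enzymes, cofactors, inhibitors and structural proteins of the blood plasma. The 35 genes described here were chosen by symbol, 20 of coagulation and fibrinolysis and 15 of complement, out of 24421 symbols in the count table. All 35 were found and all 35 passed the filter on low counts that left 12985 genes for testing. They were measured in livers of adult C57BL/6N mice of 8 to 10 weeks of age, in 4 libraries labelled WT and 4 labelled CAPZ_KO. CAPZ_KO mice carried Albumin-CreERT2 and Capzb-fl/fl and received tamoxifen on 5 days in a row from 4 to 6 weeks of age, which lets the Cre recombinase act on Capzb. Capzb encodes the beta chain of capping protein, which caps actin filament ends. The albumin promoter drives this Cre, so recombination is aimed at hepatocytes and the other liver cells keep the floxed alleles. WT mice were either Capzb-fl/fl given tamoxifen or Albumin-CreERT2;Capzb-fl/fl left uninjected, and the labels do not say which library is of which kind. All mice of both groups therefore carried the floxed alleles, and an effect of tamoxifen or of the Cre itself cannot be told apart from that of the deletion. The labels do not state that each library is a separate animal, so each p-value reflects only how far these samples spread.

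Coagulation is a cascade of serine proteases that ends in thrombin, which cuts fibrinogen into fibrin, and plasmin later dissolves the clot. Complement is a parallel cascade in which lectins or antibodies start the cleavage of C4, C2 and C3, and in which C5 to C9 assemble a pore in the membrane of the target. Hepatocytes make most of these proteins, and inflammatory signals raise the synthesis of some of them, fibrinogen and C3 among them, in what is called the acute phase response.

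Library totals ranged from 12060350 to 18916315 counts in WT and from 13122355 to 16984971 in CAPZ_KO, and the members held from 8884 (F11) to 1353990 (C3) counts over the 8 libraries. The targeted gene Capzb stood at 139.5, 109.3, 117.6 and 113.8 CPM in WT and at 69.4, 79.5, 64.5 and 76.3 CPM in CAPZ_KO. CPM here are counts divided by library size after TMM scaling, times 1e6. The groups did not overlap (log2 fold change −0.73 ± 0.125 SE, adjusted p = 0.00134), but with library sizes alone as the scale Capzb was not called (−0.10, adjusted p = 0.4405). Levels of Xist and of Y-linked genes marked WT 4 and CAPZ_KO 4 as female and the other 6 libraries as male, which the labels do not give. The 10 hepatocyte markers summed to between 175603 and 221080 CPM across WT libraries and between 40409 and 61612 CPM across CAPZ_KO libraries. Most of these sums was Alb alone, at 122729 to 175143 CPM in WT and 26276 to 43046 CPM in CAPZ_KO. Of the 10 markers 9 fell, against 19.0% of all tested genes, and Apoa1 was not called. Marker sums of stellate cells were 355 to 425 and 870 to 1349 CPM, those of Kupffer cells 469 to 1333 and 986 to 3334 CPM. Marker sums of cholangiocytes, the bile duct cells, were 43.5 to 80.4 and 370 to 1092 CPM. As signs of blood, platelet markers summed to 3.76 to 7.77 and 5.74 to 11.2 CPM, and Alas2, the haem synthesis enzyme of red cell precursors, went the other way. The other 4 erythroid markers, haemoglobin genes, were listed at 0 counts in every library. Alas2 stood at 62.8, 48.1, 142.2 and 16.2 CPM in WT and at 7.42 to 12.2 CPM in CAPZ_KO (−2.82 ± 0.574 SE, adjusted p = 0.00469), with WT 3 highest and WT 4 lowest. In bulk liver, fewer hepatocytes and less RNA per hepatocyte cannot be told apart, and the part of these markers in the results below was not tested.

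The promoters of several members are shown first, because the liver factors HNF4, FOXA and C/EBP and the acute phase factor STAT3 are textbook regulators of these genes. Of the 35 members, 27 had an entry in the RefSeq promoter table (GRCm38.p6), which holds 300 bases from 250 before to 50 after each gene start. The 8 without one were C2, C4b, Cfb, Cfi, Kng1, Masp1, Plg and Proc. Searched on both strands were the letters CAAAGT for HNF4, TGTTTA for FOXA, TTGCNNAA for C/EBP and TTCNNNGAA for STAT. The printed runs are the 250 bases before the start, 5′ to 3′ on the strand of the gene, with these letters (or their reverse complement) in capitals. The neighbouring fibrinogen genes come first, at chr3:83007474-83007723 (plus strand), chr3:83025903-83026152 (plus strand) and chr3:83049864-83050113 (minus strand), since all 3 fell and their windows differ.
Fgg: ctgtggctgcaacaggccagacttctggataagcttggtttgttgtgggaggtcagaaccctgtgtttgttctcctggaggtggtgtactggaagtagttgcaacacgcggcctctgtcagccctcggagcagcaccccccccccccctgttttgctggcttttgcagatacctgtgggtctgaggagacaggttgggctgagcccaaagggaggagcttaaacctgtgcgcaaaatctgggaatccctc
Fga: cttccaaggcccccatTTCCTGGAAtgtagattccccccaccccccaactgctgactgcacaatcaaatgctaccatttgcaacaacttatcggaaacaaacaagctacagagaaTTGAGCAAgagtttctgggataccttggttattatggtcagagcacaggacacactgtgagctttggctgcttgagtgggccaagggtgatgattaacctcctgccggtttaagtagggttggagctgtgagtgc
Fgb: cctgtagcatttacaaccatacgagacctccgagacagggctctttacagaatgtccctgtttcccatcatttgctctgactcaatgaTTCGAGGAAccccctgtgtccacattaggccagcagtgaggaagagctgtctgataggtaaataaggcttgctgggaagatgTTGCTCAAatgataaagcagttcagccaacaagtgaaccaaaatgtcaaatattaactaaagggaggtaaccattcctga

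The next 3 are F11 (chr8:45262032-45262281, minus strand) and Klkb1 (chr8:45294836-45295085, minus strand), adjacent genes among those with the largest falls, and F9 (chrX:59999214-59999463, plus strand), which holds the letters of HNF4, C/EBP and STAT.
F11: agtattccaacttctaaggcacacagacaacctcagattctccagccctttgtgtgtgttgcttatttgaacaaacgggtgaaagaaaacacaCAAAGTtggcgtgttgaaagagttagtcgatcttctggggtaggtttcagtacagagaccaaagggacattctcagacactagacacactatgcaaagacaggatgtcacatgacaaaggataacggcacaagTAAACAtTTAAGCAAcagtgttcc
Klkb1: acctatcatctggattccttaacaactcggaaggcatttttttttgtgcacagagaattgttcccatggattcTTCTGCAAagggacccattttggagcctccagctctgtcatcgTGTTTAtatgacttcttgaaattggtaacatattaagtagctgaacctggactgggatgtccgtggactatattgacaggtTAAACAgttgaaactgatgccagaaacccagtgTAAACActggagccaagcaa
F9: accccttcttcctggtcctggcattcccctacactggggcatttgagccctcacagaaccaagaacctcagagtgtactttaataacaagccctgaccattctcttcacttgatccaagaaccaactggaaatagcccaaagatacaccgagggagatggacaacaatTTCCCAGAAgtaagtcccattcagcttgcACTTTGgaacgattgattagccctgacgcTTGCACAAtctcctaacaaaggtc

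Among the complement genes, C8b (chr4:104766067-104766316, plus strand) and C8a (chr4:104876399-104876648, minus strand) fell, whereas C3 (chr17:57228137-57228386, minus strand) and C4bp (chr1:130661619-130661868, minus strand) were not called.
C8b: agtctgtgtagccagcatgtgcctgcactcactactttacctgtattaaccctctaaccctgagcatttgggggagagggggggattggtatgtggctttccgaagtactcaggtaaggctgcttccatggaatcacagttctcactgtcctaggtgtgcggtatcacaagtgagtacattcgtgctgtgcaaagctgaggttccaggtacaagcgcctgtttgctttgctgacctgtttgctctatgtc
C8a: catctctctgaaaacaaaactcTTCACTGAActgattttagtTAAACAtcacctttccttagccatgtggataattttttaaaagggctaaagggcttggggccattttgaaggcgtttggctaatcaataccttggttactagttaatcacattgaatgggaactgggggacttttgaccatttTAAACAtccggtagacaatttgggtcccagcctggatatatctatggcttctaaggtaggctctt
C3: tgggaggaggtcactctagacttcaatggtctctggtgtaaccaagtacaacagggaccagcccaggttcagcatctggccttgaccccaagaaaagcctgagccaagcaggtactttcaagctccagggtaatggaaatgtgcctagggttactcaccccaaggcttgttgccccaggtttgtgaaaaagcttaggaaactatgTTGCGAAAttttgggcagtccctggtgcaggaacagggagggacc
C4bp: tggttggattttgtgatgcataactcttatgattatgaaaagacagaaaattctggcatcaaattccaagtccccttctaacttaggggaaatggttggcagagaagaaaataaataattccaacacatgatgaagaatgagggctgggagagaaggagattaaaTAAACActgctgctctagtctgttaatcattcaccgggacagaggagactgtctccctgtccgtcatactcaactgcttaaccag

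The C/EBP letters stood in 8 of the 27 member promoters (29.6%) and in 10.8% of all 32851 promoters of the table. In Fga and Fgb they began 135 and 80 bases before the start, in C3 45, in F9 24 and in F11 17 bases before it. Fgg and C8b held none of the 4 motifs in their windows. The STAT letters stood in 25.9% of the member promoters against 8.30% of all, those of HNF4 in 22.2% against 14.4%, and those of FOXA in 22.2% against 13.4%. Coagulation members held the C/EBP letters in 6 of 17 promoters and complement members in 2 of 10. Of the 8 members with C/EBP letters 7 fell, and of all 27 with a promoter 24 fell. Such a match is a run of letters and not a shown binding site. Of a list of 10 liver transcription factors 7 fell and 0 rose, while 19.0% of all tested genes fell and 22.4% rose. With library sizes alone as the scale 3 of the list fell, against 5.4% of all tested genes. Hnf4a averaged 696.0 ± 139 CPM among WT and 426.4 ± 63.6 among CAPZ_KO libraries (SD, n = 4), and Cebpa 389.9 ± 65.8 and 167.6 ± 18.7, with log2 fold changes of −0.71 and −1.22 (adjusted p = 0.0118 and 0.000261). Foxa2 fell (−0.84, adjusted p = 0.0181), whereas Foxa1 and Foxa3 were not called (−0.65 and −0.34, adjusted p = 0.112 and 0.266). Stat3, of another list, was not called either (−0.28, adjusted p = 0.0801). These FOXA and STAT genes were chosen after their values were seen. Onecut1, a factor of liver development, had 48.4 CPM in WT 2, 4.82 to 10.3 CPM in the other WT libraries and 1.33 to 3.74 CPM in CAPZ_KO, and its log2 fold change moved from −3.0 to −1.82 without WT 2.

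In CAPZ_KO livers 29 of the 35 members fell at an adjusted p under 0.05 and 0 rose, while 19.0% of all tested genes fell, 22.4% rose and 41.4% were called in either direction. Coagulation genes that fell were 19 of 20, and the median of all 20 was −1.18 on the log2 scale. Complement genes that fell were 10 of 15, and the median of all 15 was −0.85. The median of all tested genes was −0.003, and that of the 10 hepatocyte markers, of which 9 fell, was −2.02. All 4 CAPZ_KO libraries lay below all 4 WT libraries for 19 coagulation and 8 complement members, as they did for 18.2% of all tested genes, and 40.3% of all tested genes were apart in either direction. The members that were not called were F12, C2, C3, Cfb, C4bp and Masp1. These directions are relative to the other genes, as TMM sets them. Scaled by library sizes alone, which moved the median of all genes to 0.62, 15 coagulation and 4 complement members fell, F12, C2 and Cfb rose (0.55, 0.54 and 0.46), and C3, C4b, Masp1 and C4bp turned to positive values that were not called. In the same fit 91.6% of all calls were higher, against 54.1% with TMM.

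**Figure D1:**
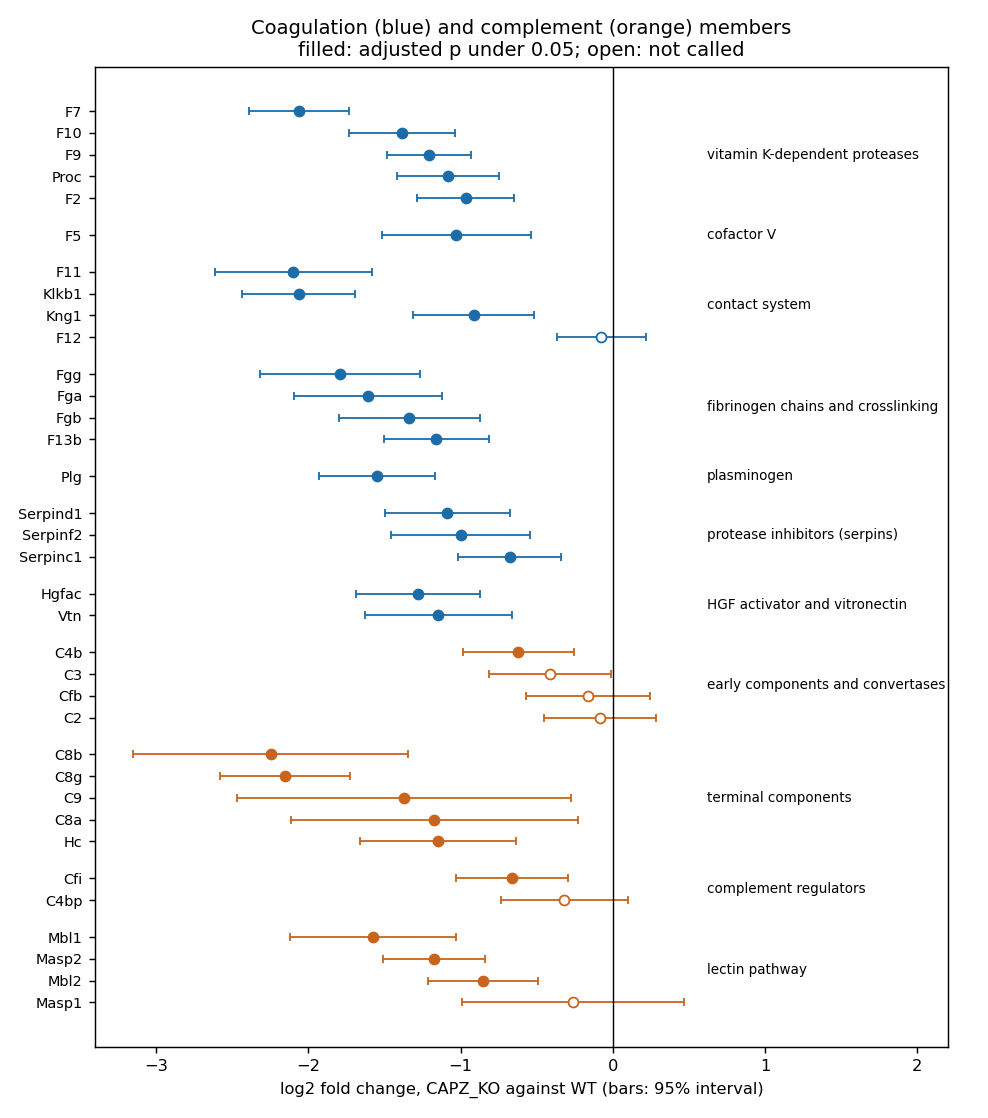
Log2 fold change of each of the 35 members in CAPZ_KO against WT (x axis, edgeR with TMM scaling, 4 libraries per group), grouped by role, with bars for the 95% interval, blue for coagulation and orange for complement, filled where the adjusted p was under 0.05. Of the 35 points 29 are filled, all to the left of 0; the open ones are F12, C3, Cfb, C2, C4bp and Masp1, which with C4b have positive values when library sizes alone set the scale.

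The proteases that need vitamin K to bind calcium and membranes are prothrombin (F2), factors VII, IX and X (F7, F9, F10) and protein C (Proc), and all 5 fell. F7, which starts the cascade with tissue factor, stood at 145.7, 142.4, 155.2 and 165.0 CPM in WT and at 30.9, 44.3, 31.0 and 39.6 CPM in CAPZ_KO. Its WT libraries lay close together and far above the highest CAPZ_KO library, a log2 fold change of −2.06 ± 0.149 (SE, adjusted p = 1.26e-05). F10, which lies 1498 bases downstream of F7 on chromosome 8 (13037308 to 13056676, plus strand, GRCm38), forms the complex that makes thrombin. Its values were 852.8, 699.7, 679.5 and 594.2 CPM in WT and 252.1, 317.1, 255.7 and 258.5 CPM in CAPZ_KO, again without overlap and with a log2 fold change of −1.38 ± 0.157 (SE, adjusted p = 0.000138). F9, the protease lacking in haemophilia B, had 268.2, 299.4, 328.3 and 318.8 CPM in WT and 128.5, 122.0, 132.9 and 141.9 CPM in CAPZ_KO. The groups were well apart and F9 was at 43.2% of its WT level. F2 was at 51.2% and Proc, whose product inactivates factors V and VIII, at 47.2% of the WT level (log2 fold changes −0.97 ± 0.144 and −1.08 ± 0.149, SE). F5, the cofactor of factor X, stood at 372.4, 767.8, 612.8 and 586.4 CPM in WT and at 318.5, 306.4, 222.2 and 299.9 CPM in CAPZ_KO. WT 1 was the low WT library and lay close to the CAPZ_KO libraries (log2 fold change −1.03 ± 0.22 SE, adjusted p = 0.00431).

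The 4 genes of the contact system, which starts clotting on charged surfaces, included 3 that fell and 1, F12, that was not called. F11 stood at 116.5, 123.2, 171.0 and 80.1 CPM in WT and at 33.2, 33.6, 23.7 and 24.0 CPM in CAPZ_KO. Klkb1, plasma prekallikrein, stood at 254.7, 260.8, 287.8 and 194.8 CPM in WT and at 51.1, 71.1, 63.5 and 53.1 CPM in CAPZ_KO. The genes of these related proteases lie 4657 bases apart on chromosome 8 (45241174 to 45262031 and 45266689 to 45294859, minus strand), and their log2 fold changes were −2.10 ± 0.232 and −2.06 ± 0.167 (SE). Another gene model on the same strand, Gm45753, covers 43.2% of the exon bases of Klkb1. Kng1, the kininogen that carries both in plasma, was at 53.1% of its WT level, though reads can be shared with its near-identical copy Kng2, which was not called (−0.25, adjusted p = 0.242). F12, the protease that activates F11 and prekallikrein, stood at 630.3, 575.6, 601.9 and 538.6 CPM in WT and at 489.4, 603.7, 579.5 and 555.7 CPM in CAPZ_KO. Its groups overlapped, and the 95% interval of its log2 fold change ran from −0.37 to 0.22 (adjusted p = 0.676). That interval does not reach the value of any other coagulation member.

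Fibrinogen is a protein of 3 chains, alpha, beta and gamma, whose genes Fga, Fgb and Fgg lie within 1 locus on chromosome 3 (83007724 to 83049863, GRCm38). Fga stood at 8533, 7963, 7164 and 5617 CPM in WT and at 2314, 3177, 2374 and 1737 CPM in CAPZ_KO. Fgb stood at 7426, 7444, 6295 and 5363 CPM in WT and at 2333, 3519, 2611 and 2045 CPM in CAPZ_KO. Fgg stood at 7729, 5790, 5483 and 4383 CPM in WT and at 1674, 2251, 1599 and 1229 CPM in CAPZ_KO. In all 3 genes the female library was the lowest of its group, CAPZ_KO 2 was the highest of the CAPZ_KO libraries, and the groups did not overlap. Log2 fold changes were −1.61 ± 0.219 for Fga, −1.34 ± 0.207 for Fgb and −1.79 ± 0.237 for Fgg (SE, adjusted p = 0.000361, 0.000742 and 0.000304). Within a library, where scaling cancels, the ratio of Fga to Fgb counts was 1.05 to 1.15 in WT against 0.849 to 0.992 in CAPZ_KO, and that of Fgg to Fgb was 0.778 to 1.04 and 0.601 to 0.718. The WT and CAPZ_KO libraries did not overlap in either ratio, with CAPZ_KO lower. These ratios were chosen after the values were seen and are given without a test. F13b, the carrier subunit of the factor XIII that crosslinks fibrin, was at 44.8% of its WT level (−1.16 ± 0.154 SE).

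**Figure D2:**
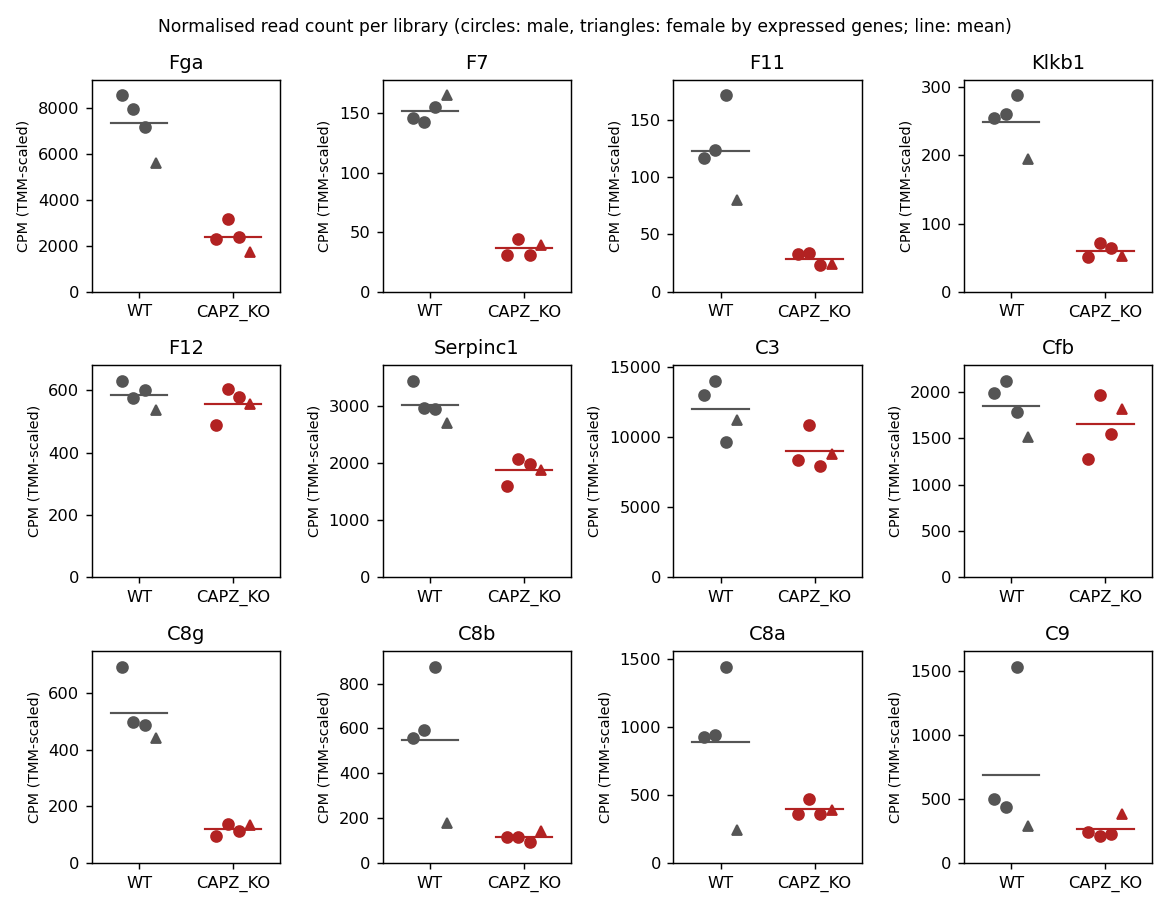
Normalised read count (TMM-scaled CPM, y axis from 0) of selected members in each library, WT in grey and CAPZ_KO in red, with a line at the group mean and triangles for the female libraries. F7, Klkb1 and C8g are well apart between groups, F12 and Cfb overlap, and C8a, C8b and C9 spread widely in WT, with WT 3 highest and the female WT 4 lowest.

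Plg, plasminogen, which yields the clot-dissolving protease plasmin, had values of 2980 to 3672 CPM across WT libraries and 988.9 to 1447 CPM across CAPZ_KO libraries. It fell to 34.2% of its WT level, from a mean of 3375 ± 316 to 1155 ± 205 CPM (SD, n = 4), with a log2 fold change of −1.55 ± 0.171 (SE). The serpins of the list are the inhibitors of these proteases, and all 3 fell. Serpinc1, antithrombin, had the smallest fall of the 19 coagulation genes called, with 3436, 2957, 2945 and 2709 CPM in WT and 1606, 2066, 1981 and 1874 CPM in CAPZ_KO. It kept 62.5% of its WT level (−0.68 ± 0.152 SE, adjusted p = 0.00549), and 34.4% of its exon bases overlap Zbtb37 on the opposite strand. Serpind1, heparin cofactor II, was at 47.1% of WT (−1.09 ± 0.185 SE), and Serpinf2, the inhibitor of plasmin, went from 1234 ± 218 to 617.4 ± 146 CPM (SD, n = 4, adjusted p = 0.00358). Hgfac, the protease that activates hepatocyte growth factor, was at 41.2% of WT. Vtn, vitronectin, an adhesion protein of plasma and matrix, stood at 5055, 3864, 3879 and 2468 CPM in WT and at 1658, 2002, 1536 and 1698 CPM in CAPZ_KO, with WT 4 nearest to the CAPZ_KO libraries (−1.15 ± 0.218 SE).

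Of the 4 early complement components, 1 fell and 3 were not called. C3, on which all complement pathways meet, stood at 13023, 14021, 9684 and 11259 CPM in WT and at 8406, 10889, 7941 and 8786 CPM in CAPZ_KO. The groups overlapped, since CAPZ_KO 2 lay above WT 3, and C3 was not called (−0.41 ± 0.181 SE, 95% interval −0.82 to −0.01, adjusted p = 0.0904). By DESeq2, and by edgeR without CAPZ_KO 2, C3 was called at −0.44 and −0.56 (adjusted p = 0.02609 and 0.04788). Cfb, the protease of the alternative pathway, and C2, that of the classical and lectin pathways, are adjacent on chromosome 17 with 85 bases between them. Cfb stood at 1990, 2118, 1780 and 1514 CPM in WT and at 1274, 1971, 1550 and 1813 CPM in CAPZ_KO. C2 stood at 182.1, 199.7, 201.8 and 151.3 CPM in WT and at 138.4, 214.8, 155.4 and 185.2 CPM in CAPZ_KO. Both overlapped between groups, with 95% intervals of the log2 fold change from −0.57 to 0.24 and from −0.45 to 0.29. Another gene model on the same strand covers 79.5% of the exon bases of Cfb and 42.8% of those of C2. C4b, one of the mouse genes of C4, lies 112491 bases from Cfb, with 1272 to 1758 CPM among WT and 836.5 to 1107 CPM among CAPZ_KO libraries. It fell to 65.0% of its WT level (−0.62 ± 0.165 SE, adjusted p = 0.0128), though its near-identical copy C4a, itself at 6.28 CPM in WT, can share its reads.

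Of the 2 regulators of the list, 1 fell. Cfi, factor I, which cleaves C3b and C4b, ranged from 921.0 to 1193 CPM in WT and from 550.1 to 796.2 CPM in CAPZ_KO, and fell to 63.2% of WT (−0.66 ± 0.165 SE, adjusted p = 0.00933). C4bp, the binding protein of C4b that acts as its cofactor, stood at 767.8, 684.2, 801.6 and 525.8 CPM in WT and at 438.0, 629.6, 507.1 and 654.3 CPM in CAPZ_KO, and was not called (−0.32, 95% interval −0.73 to 0.10, adjusted p = 0.198). WT 4 lay among the CAPZ_KO libraries.

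The lectin pathway is started by mannose-binding lectins, which bind sugars on microbes and carry the MASP proteases. Mbl1 stood at 398.3, 234.1, 254.3 and 154.6 CPM in WT and at 86.6, 92.1, 87.6 and 83.1 CPM in CAPZ_KO. The CAPZ_KO libraries were nearly equal while WT spread widely, with a log2 fold change of −1.58 ± 0.245 (SE, adjusted p = 0.000754). Mbl2 fell from 514.5 ± 51.0 to 284.9 ± 52.0 CPM (SD, n = 4, −0.85 ± 0.162 SE). The ratio of Mbl2 to Mbl1 counts was 1.39 to 3.65 in WT against 2.83 to 3.99 in CAPZ_KO, and these ranges overlapped through WT 4. Masp2, the protease that cleaves C4 and C2, ranged from 291.4 to 335.9 CPM in WT and from 112.7 to 160.0 CPM in CAPZ_KO. It fell to 44.3% of WT (−1.18 ± 0.150 SE), but 54.9% of its exon bases overlap Tardbp on the opposite strand, a gene at 54.9 and 56.4 CPM in the 2 groups. Masp1, a related protease, had 31.8, 95.7, 109.2 and 65.2 CPM in WT and 49.7, 66.3, 59.9 and 76.5 CPM in CAPZ_KO. The groups overlapped, and the 95% interval of −0.99 to 0.47 includes 0 as well as the values of C4b, Cfi and Mbl2.

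The terminal components build the membrane attack complex, and all 5 fell, though the falls of C8a and C9 depended on the fit. C8g, the gamma chain of C8, stood at 692.6, 497.0, 487.5 and 442.0 CPM in WT and at 93.8, 137.0, 111.4 and 133.6 CPM in CAPZ_KO, a log2 fold change of −2.15 ± 0.192 (SE, adjusted p = 3.96e-05). C8b stood at 557.2, 591.3, 876.3 and 176.5 CPM in WT and at 114.5, 114.5, 93.7 and 141.0 CPM in CAPZ_KO. C8a stood at 927.1, 943.8, 1447 and 246.1 CPM in WT and at 359.9, 471.1, 361.9 and 389.3 CPM in CAPZ_KO. The female WT 4 was the lowest WT library of both genes and, in C8a, lay below every CAPZ_KO library. C8b had −2.25 ± 0.403 (SE, adjusted p = 0.002) and C8a −1.17 ± 0.420 (SE, adjusted p = 0.0486). C8a passed the threshold in 6 of 18 fits that varied the processing or left out a library, with an adjusted p of 0.0663 with sex as a term, 0.1278 without WT 3 and 0.001321 without both female libraries. Both genes lie tail to tail on chromosome 4, 11130 bases apart, and the C8b to C8a ratio of counts was 0.601, 0.627, 0.606 and 0.717 in WT and 0.318, 0.243, 0.259 and 0.362 in CAPZ_KO. In WT that ratio lay in a narrow range, the female library included, while the level of either gene spread widely. In CAPZ_KO, where both levels spread less, the ratio ran from 0.243 to 0.362. The ratio was chosen after its values were seen. For C8g to C8a the ratio was 0.337 to 1.80 in WT against 0.261 to 0.343 in CAPZ_KO, and these ranges overlapped through WT 3.

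C9, the pore-forming component, stood at 498.0, 435.7, 1537 and 286.8 CPM in WT and at 242.0, 211.5, 227.6 and 385.7 CPM in CAPZ_KO. WT 3 alone made the WT mean high, and the groups overlapped through the female libraries. Its log2 fold change was −1.37 ± 0.487 (SE, adjusted p = 0.0478), and −0.62 with an adjusted p of 0.09651 without WT 3. It passed the threshold in 7 of the 18 fits. Hc, the gene of C5, fell from 1139 ± 386 to 513.1 ± 40.8 CPM (SD, n = 4, −1.15 ± 0.230 SE), again with WT 3 highest at 1640 and WT 4 lowest at 728.4 CPM. C6, which is no member, and was chosen after its values were seen, also had WT 4 lowest at 49.9 CPM and WT 3 highest at 384.8 CPM among WT libraries. It was not called (−0.27, adjusted p = 0.731; 0.66 without WT 3). Alas2, given above, also had WT 3 highest and WT 4 lowest, and its part in these values was not tested.

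**Figure D3:**
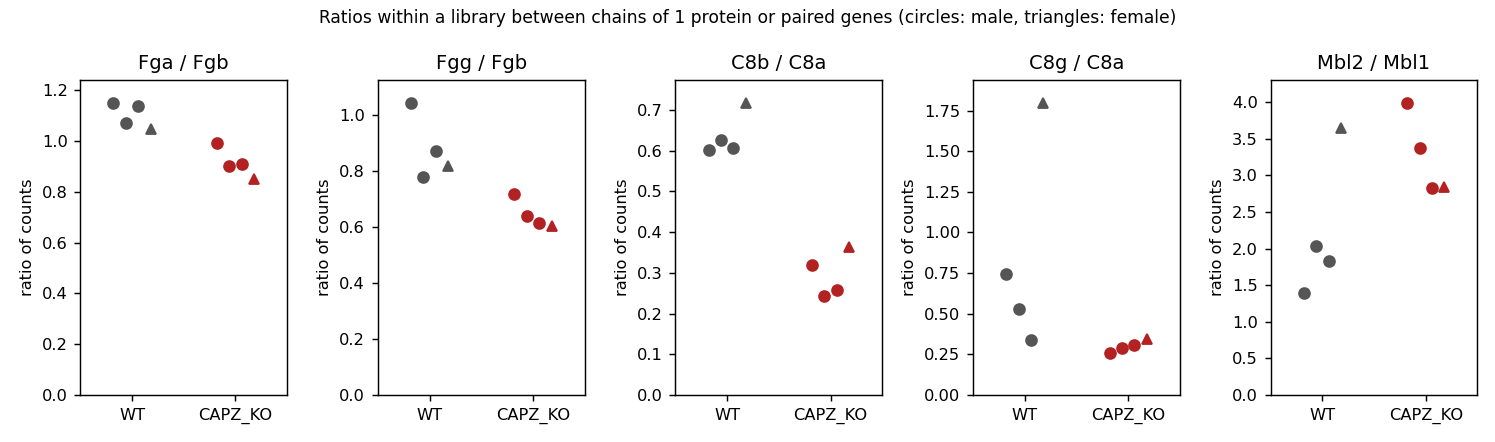
Ratio of the counts of paired genes within each library (y axis from 0, no unit), WT in grey and CAPZ_KO in red, with triangles for the female libraries. The groups do not overlap for Fga over Fgb (1.05 to 1.15 in WT, 0.849 to 0.992 in CAPZ_KO), Fgg over Fgb or C8b over C8a (0.601 to 0.717 and 0.243 to 0.362), and they overlap for C8g over C8a and Mbl2 over Mbl1.

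Coagulation members were compared with complement members through their counts within each library. Coagulation members took 3.66%, 3.49%, 3.28% and 2.89% of all counts in WT and 2.08%, 2.53%, 2.11% and 1.83% in CAPZ_KO. Complement members took 1.80%, 1.97%, 1.80% and 1.58% in WT and 1.81%, 2.10%, 1.69% and 1.83% in CAPZ_KO. Shares of the first set did not overlap between groups, and those of the second did. These shares are of unscaled counts, as with library sizes alone. After TMM scaling the complement members summed to 18598 to 24520 CPM in WT and 13401 to 17729 CPM in CAPZ_KO, without overlap. The coagulation members then summed to 34065 to 47254 and 15215 to 21419 CPM, also without overlap. The ratio of coagulation to complement counts was 2.03, 1.77, 1.82 and 1.83 in WT and 1.15, 1.21, 1.25 and 0.997 in CAPZ_KO, a ratio that no scaling alters. Fibrinogen took 47.5% ± 2.33 of the coagulation counts in WT and 38.6% ± 3.91 in CAPZ_KO, and C3 took 54.2% ± 7.75 and 60.0% ± 1.92 of the complement counts (SD, n = 4). Without C3 the ratio was 3.19 to 4.64 in WT and 2.35 to 3.13 in CAPZ_KO, which nearly touched. Without C3 and the fibrinogen chains it was 1.72 to 2.55 and 1.58 to 1.86, and the groups overlapped. The log2 ratio of sums, CAPZ_KO minus WT, was −0.70 with all members, −0.52 without C3 and −0.29 without those 4 genes. Gene by gene, the median member of each CAPZ_KO library lay 0.23 to 0.62 higher for complement than for coagulation on the log2 scale, measured from the WT mean of each gene, against −0.06 to 0.13 in the WT libraries. The difference of the set medians, −0.33, was −0.19 without CAPZ_KO 1 and −0.55 without WT 3.

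**Figure D4:**
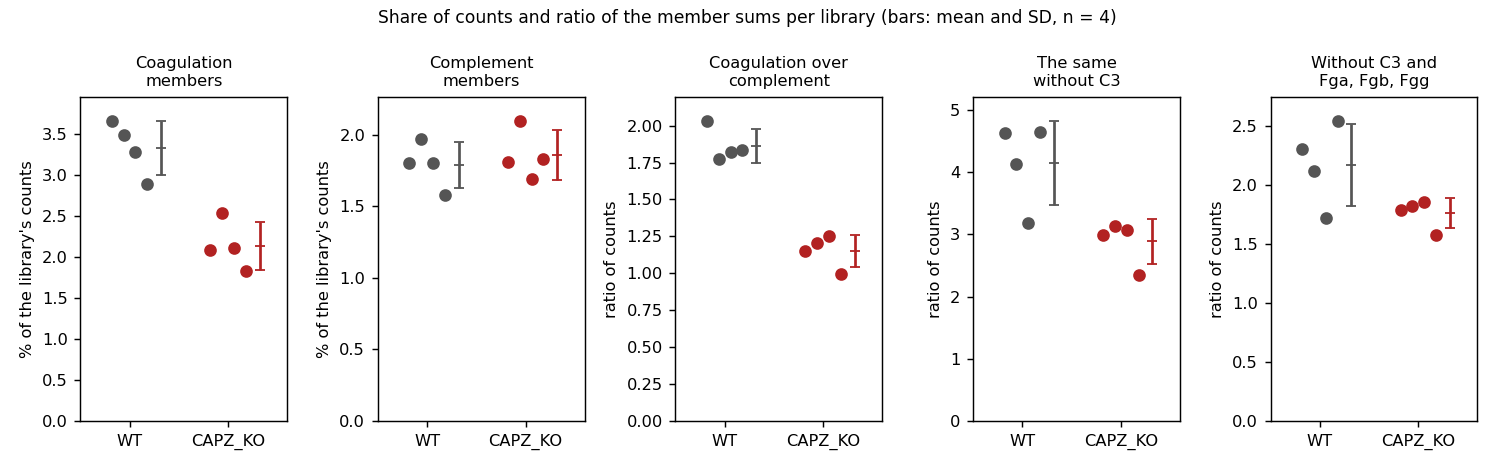
Share of each library's counts taken by coagulation and by complement members (percent) and the ratio of the summed counts with all members, without C3, and without C3 and the fibrinogen genes, one point per library with mean and SD (n = 4) beside them. The coagulation share is lower in every CAPZ_KO library (1.83% to 2.53%) than in any WT library (2.89% to 3.66%), the complement shares overlap, and the ratios overlap once C3 and the fibrinogen genes are left out. The shares are of unscaled counts, and the TMM-scaled complement sums, not drawn, do not overlap.

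Per kilobase of exon (GENCODE vM21, basic transcripts), the members ranged widely in level. In WT Fgg was highest at 2793 ± 666 CPM per kb, followed by Fga at 2432 ± 421, C3 at 2336 ± 374 and Vtn at 2188 ± 607, whose spreads overlap, and Masp1 was lowest at 8.83 ± 4.03 (SD, n = 4). In CAPZ_KO C3 led with 1753 ± 254 CPM per kb, ahead of Vtn at 988.1 ± 114, Fgg at 806.6 ± 202 and Fga at 797.5 ± 197, a gap to C3 wider than these SDs. Cfb went from rank 9 to 6, F12 from 18 to 12, C4bp from 23 to 15 and C2 from 32 to 24 of the 35 members, while C8g went from 14 to 23 and C8b from 21 to 28. The exon models may differ from those the authors counted on.

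Other genes of both pathways were listed to see how far the members' fall extended. Of 31 tested genes of coagulation and fibrinolysis, 15 rose (48.4%) and 7 fell (22.6%), against 22.4% and 19.0% of all tested genes (median log2 fold change 0.60). The share that fell was thus near that of all genes, and with library sizes alone 1 of them fell. Named by size, the falls were those of Hrg, the histidine-rich glycoprotein, at −1.22, Tfpi2, a protease inhibitor, at −1.20, Proz, protein Z, at −1.18 and Fgl1, a fibrinogen-like protein, at −0.98. F2rl1, the protease receptor PAR2, stood at 0.321, 0.460, 0.142 and 0.194 CPM in WT and at 12.4, 19.6, 15.1 and 15.8 CPM in CAPZ_KO (5.78 ± 0.312 SE, adjusted p = 2.81e-06). Plat, the tissue plasminogen activator, rose by 3.64, from a mean of 0.802 CPM in WT to 9.88 CPM in CAPZ_KO. Anxa2, a plasminogen receptor subunit, rose by 3.26, from 30.9 to 296.5 CPM. F13a1, the catalytic subunit of factor XIII, rose by 3.19, from 0.286 to 2.73 CPM, a low level in both groups. Plaur, the urokinase receptor, chosen after its values were seen, rose by 2.52 to a level of 6.05 ± 1.04 CPM (SD, n = 4). In the same libraries 5 of 7 markers of monocyte-derived macrophages (median log2 fold change 3.08), 5 of 8 of cholangiocytes (3.06), 7 of 8 of stellate cells (1.58) and 3 of 8 of sinusoidal endothelial cells (0.28) rose. Of 7 genes in or around the vitamin K cycle 2 fell (28.6%), 1 rose (14.3%) and 4 were not called. Of all tested genes 19.0% fell and 22.4% rose. Vkorc1, the epoxide reductase, and Ggcx, the carboxylase, fell (−1.05 ± 0.148 and −0.69 ± 0.192, SE), and Nqo1, a quinone reductase, rose by 2.22, whereas with library sizes alone Ggcx was not called.

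Of 32 other complement genes tested, 12 rose (37.5%) and 11 fell (34.4%), with a median of 0.11. Of all tested genes 22.4% rose and 19.0% fell. With library sizes alone 6 of the list fell, against 5.4% of all tested genes. Cfhr2 fell by 1.57 on the log2 scale, though the division of reads within its family of near-identical genes is uncertain. C1rl, a C1r-like protease, fell by 1.32, and Cd59b, a membrane inhibitor of the pore, by 1.74. Cd59b was at a low level, with a mean of 3.39 CPM in WT and 1.01 CPM in CAPZ_KO. The C1 inhibitor gene Serping1, singled out with its values in view, fell by 0.92. Clu, clusterin, a plasma chaperone that also binds the terminal complex, stood at 1950, 1637, 1951 and 1295 CPM in WT and at 6277, 6896, 6718 and 5452 CPM in CAPZ_KO. It was the member of the list with the highest level and rose by 1.89 ± 0.184 (SE, adjusted p = 6.05e-05). C5ar1, the receptor of C5a, rose by 2.53, Itgax, a chain of a receptor for cleaved C3, by 2.05, and Cd93 by 1.81. The 3 chains of C1q, which macrophages make, rose by 1.02, 1.14 and 1.12 (C1qa, C1qb and C1qc, chosen after their values were seen), in libraries where 2 of 6 Kupffer cell markers and 5 of 7 markers of monocyte-derived macrophages rose.

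Acute phase genes were listed because fibrinogen and several complement genes belong to that response. Of 12 tested, 4 fell (33.3%) and 1 rose (8.33%), against 19.0% and 22.4% of all tested genes. With library sizes alone 1 fell. Itih4 fell by 1.48, Orm1 by 0.75 and Fgl1 by 0.98, whereas Lcn2, lipocalin 2, stood at 123.2, 57.2, 13.3 and 118.8 CPM in WT and at 485.1, 1692, 734.4 and 1498 CPM in CAPZ_KO (3.82 ± 0.720 SE, adjusted p = 0.00327). Saa1, serum amyloid A, fell by 2.62 (adjusted p = 0.0406), but WT 1 held 2086 CPM and the other WT libraries 151.1 to 257.5 CPM. Its log2 fold change was −0.98 without WT 1 (adjusted p = 0.01941), and the call of Saa1 was lost on leaving out any CAPZ_KO library (adjusted p from 0.07928 to 0.1062). That of Orm1 was lost without WT 1, CAPZ_KO 1 or CAPZ_KO 3 (adjusted p from 0.06106 to 0.06692). Il6 had too few counts to be tested. Of 10 tested genes of acute phase signalling 3 rose (30%) and 1 fell (10%), against 22.4% and 19.0% of all tested genes. Those that rose were Il1b, Tnf and Nfkb1 (0.99, 1.58 and 0.48), and Cebpb fell by 1.14. Tnf was near the floor, at a mean of 0.350 CPM in WT and 1.10 CPM in CAPZ_KO. The call of Il1b was lost without any of 6 libraries in turn, WT 1 to 3 and CAPZ_KO 1 to 3, with adjusted p from 0.0581 to 0.1229, and that of Tnf without CAPZ_KO 1 (0.0506).

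**Figure D5:**
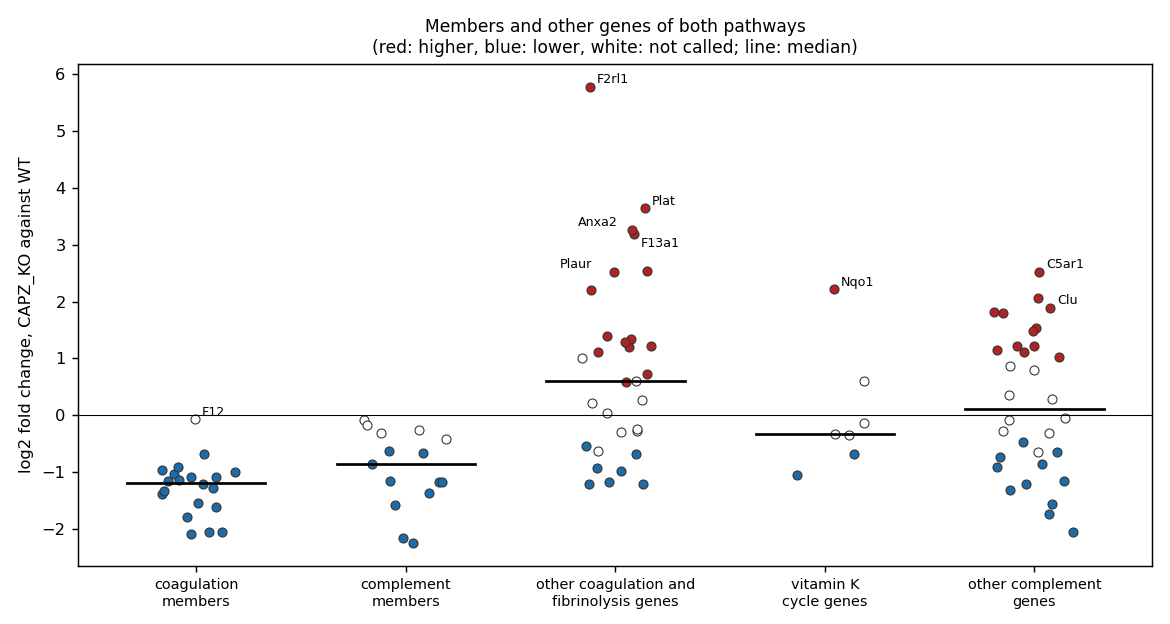
Log2 fold change in CAPZ_KO against WT (y axis) of the members and of the tested genes of 3 companion lists, 1 point per gene, red for higher, blue for lower and white for not called, with a line at each median. The medians are −1.18 and −0.85 for the coagulation and complement members and 0.60, −0.33 and 0.11 for the other genes, whose calls go both ways.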

How the data were processed

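Per the labels' protocols, poly(A) RNA of perfused livers was made into stranded libraries, 4 per group. The authors deposited whole-number counts for each gene symbol, not normalized. Per the submitters' processing notes, the tools were STAR 2.5.3a, bcl2fastq, R 3.3.1, edgeR and featureCounts and the build mm10, with no role stated for any. Which gene models, strand setting and rule for multi-mapping reads were used is not given in the sources used here, so reads of overlapping or near-identical genes can be divided in unknown ways.

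Genes were kept by filterByExpr of edgeR 4.0.16 (minimum count 10, minimum total 15), which removed 0.0451% to 0.109% of a library's counts. Counts were scaled by TMM (factors 0.774 to 0.847 in WT, 1.18 to 1.33 in CAPZ_KO) and tested by the robust edgeR quasi-likelihood test on all 8 libraries, with Benjamini-Hochberg adjustment over all 12985 genes and a threshold of 0.05 (R 4.3.3). Every adjusted p is from edgeR unless another tool is named. Intervals of 95% and SEs come from the same fit. A run of that fit on simulated counts gave every gene the same dispersion and changed few genes. It therefore cannot show how well these intervals hold. CPM are deposited counts divided by the TMM-scaled library size, per 1e6. Sets were described by counts of calls and medians, with no test. Named from each companion list are up to 4 genes per direction with the largest change among those called with a mean CPM of at least 1; some genes and 1 motif are not reported here. Members and lists were chosen with earlier results of these data known. No library was a duplicate of another in its group (chi-square over genes divided by its degrees of freedom, 25.2 to 144.5). Positions and exon lengths are from GENCODE vM21 (GRCm38, the assembly mm10 names), where all 35 members were found. Alternatives were other scalings and filters, DESeq2 1.42.0, limma-voom (limma 3.58.1), sex or the replicate number as a further term, and each library left out. Leaving out both female libraries, or C3 and fibrinogen from the ratio of sums, was chosen after seeing the data.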

Additional observations from a re-analysis of the deposited data

Results flagged for a closer look

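By Dixon's test, 1 library lay apart from the other 3 of its group in 3 of 70 groups of member values, where chance, at about 1 in 20 groups, gives 3.5. C9 in WT 3 stood at 1537 CPM against 286.8 to 498.0 CPM in the other WT libraries. F13b in WT 1 stood at 221.1 CPM, below the 308.1 to 325.4 CPM of the other WT libraries. F10 in CAPZ_KO 2 stood at 317.1 CPM, above the 252.1 to 258.5 CPM of the other CAPZ_KO libraries.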

How the results depend on the processing

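The call of a fall in 19 coagulation members held in each fit except that with library sizes alone as the scale, and of the complement calls those of C8a and C9 were lost elsewhere (called in 6 and 7 of 18 fits). There the median of all genes was 0.62, 7662 genes rose and 701 fell, 15 coagulation members fell and 1 rose, 4 complement members fell and 2 rose, and the medians were −0.57 and −0.22. Positive log2 values there were 0.55 for F12, 0.54 for C2, 0.21 for C3, 0.000799 for C4b, 0.46 for Cfb, 0.35 for Masp1, 0.30 for C4bp, 0.36 for C6 and 0.37 for Kng2, and Capzb was at −0.10 (adjusted p = 0.4405). Of the companion lists, those that fell then were 1 coagulation, 1 vitamin K, 6 complement, 1 acute phase, 0 signalling and 3 liver factor genes, and 3 vitamin K and 5 signalling genes rose. C6 was also positive by limma-voom (0.19), with the replicate block (0.20) and on leaving out 1 library ran from −0.58 (without WT 4) to 0.66 (without WT 3), and the cause was not tested.

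Complement members that fell were 11 by DESeq2, 8 by limma-voom, with no filter, or with sex as a term, and 8 to 10 on leaving out 1 library. Leaving out 1 library in turn, the complement median ran from −0.99 to −0.62 (without WT 3), the difference of set medians from −0.55 (without WT 3) to −0.19 (without CAPZ_KO 1), and called vitamin K genes that rose from 1 to 2, acute phase genes that fell from 2 to 4, signalling genes that fell from 1 to 3 and that rose from 1 to 3. Without both female libraries that difference was −0.49. The log2 ratio of sums was −0.52 without C3 and −0.29 without C3 and fibrinogen. Vitamin K genes that rose were 2, and signalling genes that fell 2, with the block, with sex as a term or without both female libraries, and 2 signalling genes fell by DESeq2. The cause of these moves was not tested.

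The labels give no shared batch or litter for equal replicate numbers. Same-numbered libraries deviated together with correlations of 0.244, 0.00889, 0.066 and 0.303. Pairs with unlike numbers ran from −0.291 to 0.108, and WT 2 was closest to CAPZ_KO 3. WT 4 and CAPZ_KO 4 were both female by expressed genes, and whether equal numbers share a batch was not tested. With the number as a replicate block 2974 genes rose and 2411 fell, and 8 complement members fell. Each member had at least 8884 counts, while Il6 had too few to be tested.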
